A study of Homo sapiens with 40 samples.

Results

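The regions described here are 308 CENP-A ChIP-Seq peaks that flank the centromeres of chromosomes 2, 3, 4, 5, 6, 9 and 12 in SW480 cells. A peak was taken when it had no base in the centromere band of its chromosome and lay wholly within 5 Mb of that band. On chromosome 9 the window was wider and ran from 40 Mb to 71 Mb with the band itself left out. The 308 peaks were drawn from 5748 deposited peaks, of which 4416 lay outside every centromere band and are called ectopic. SW480 is an established colon cancer cell line. Cells were electroporated with control siRNA (labelled untreated) or with siRNA against DAXX, HIRA, HJURP, HIRA+DAXX or HIRA+HJURP, and native chromatin was collected after 72 hours. Nucleosomes released with MNase were precipitated with ACA serum, which recognizes centromere proteins and not CENP-A alone. Control and the 3 single knockdowns had 4 ChIP and 4 input libraries each, and both combined knockdowns had 2 of each. The processed files used here were 1 merged peak set per condition on hg19, with a start and an end for each peak and no score or replicate, so differences between conditions have no replicate error to be read against.

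CENP-A is the histone H3 variant that marks the centromere. HJURP is its dedicated chaperone, whereas HIRA and DAXX deposit the replacement variant H3.3, HIRA mainly at active genes and regulatory elements and DAXX with ATRX at telomeres and pericentromeric repeats. The DNA beside human centromeres is made of alpha satellite, of simple satellites built from the 5-base word ATTCC, and of segmental duplications that carry copies of genes from elsewhere in the genome.

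The 308 peaks lay on 4 of the 7 chromosomes, with 156 on chromosome 9, 133 on chromosome 2, 17 on chromosome 6 and 2 on chromosome 4. Chromosomes 3, 5 and 12 had none in any of the 6 sets. Merging peaks within 10000 bp of each other across the 6 sets gave 28 sites, numbered here from 1 to 28 in the order of chromosome and position. Of the peaks, 226 were intergenic, 57 lay in introns only and 25 touched an annotated exon. Long unsequenced stretches were close by, and 177 of the peaks (57.5%) lay within 100 kb of a run of N at least 100 kb long. Neither annotation nor distance to such runs was counted over all ectopic peaks, so these counts do not set the members apart. On chromosome 9 such runs filled 58.2% of the window, and 154 of its 156 peaks lay on the long arm, 15.8 to 19 Mb from the band. Of the 156 peaks, 1 was within 5 Mb of the band, so for this chromosome "pericentromeric" is a matter of the wider window.

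The sequence under the peaks fell into contrasting types, and 1 stretch of each is shown because the ratios to control differed between the sites that hold them. For the satellite types, sequence and chromosome cannot be told apart. All are read 5′ to 3′ on the plus strand of GRCh37, the build that hg19 names. The stretch of site 2 was chr2:89877042-89877341, the middle of the longest stretch there that lay in a peak of all 6 sets, and its capitals mark ATTCC or its reverse complement GGAAT. The 3 stretches of site 18 were consecutive units of the length of an alpha satellite monomer, at chr9:66822116-66822286, chr9:66822287-66822457 and chr9:66822458-66822628. Their capitals mark a match to the CENP-B box, the motif that the protein CENP-B binds in alpha satellite, searched as TTCG, any 4 bases, A, any 2 bases and CGGG. The stretch of site 24 was chr9:68415101-68415394, which lay in a peak of all 6 sets, with the annotated MIR4477B hairpin gene in capitals. The stretch of site 7 was chr6:57379687-57379886, the middle of the widest HIRA knockdown peak with no base in a control peak, with ATTCC or GGAAT in capitals. The stretch of site 6 was chr4:52708866-52709165, the 300 bases before the annotated start of DCUN1D4, with each CG in capitals.
Site 2, chromosome 2 satellite: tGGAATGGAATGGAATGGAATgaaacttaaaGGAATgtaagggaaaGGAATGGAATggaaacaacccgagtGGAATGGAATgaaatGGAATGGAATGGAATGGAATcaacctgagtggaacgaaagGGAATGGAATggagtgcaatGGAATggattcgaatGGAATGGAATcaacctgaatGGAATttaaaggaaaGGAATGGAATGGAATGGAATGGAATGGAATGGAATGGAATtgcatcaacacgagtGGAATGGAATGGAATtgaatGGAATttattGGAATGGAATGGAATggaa
Site 18, unit 1: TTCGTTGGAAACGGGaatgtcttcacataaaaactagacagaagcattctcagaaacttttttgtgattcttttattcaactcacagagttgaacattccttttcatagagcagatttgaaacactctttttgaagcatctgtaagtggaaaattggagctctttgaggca
Site 18, unit 2: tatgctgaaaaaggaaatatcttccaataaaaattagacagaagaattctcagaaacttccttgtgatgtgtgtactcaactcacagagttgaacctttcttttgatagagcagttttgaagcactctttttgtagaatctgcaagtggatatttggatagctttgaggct
Site 18, unit 3: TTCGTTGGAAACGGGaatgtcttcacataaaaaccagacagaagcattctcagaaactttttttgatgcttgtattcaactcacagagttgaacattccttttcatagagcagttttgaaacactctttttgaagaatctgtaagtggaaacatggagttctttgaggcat
Site 24, MIR4477B stretch: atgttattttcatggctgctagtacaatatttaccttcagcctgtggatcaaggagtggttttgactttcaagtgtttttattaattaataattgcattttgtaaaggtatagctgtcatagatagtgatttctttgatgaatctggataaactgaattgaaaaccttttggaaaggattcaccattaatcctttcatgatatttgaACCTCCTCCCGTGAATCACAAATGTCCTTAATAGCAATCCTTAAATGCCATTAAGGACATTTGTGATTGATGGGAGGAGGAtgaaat
Site 7, PRIM2 intron: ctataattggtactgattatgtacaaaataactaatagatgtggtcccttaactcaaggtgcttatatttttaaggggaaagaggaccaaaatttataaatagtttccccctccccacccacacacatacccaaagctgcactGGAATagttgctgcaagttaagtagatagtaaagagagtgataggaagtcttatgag
Site 6, before DCUN1D4: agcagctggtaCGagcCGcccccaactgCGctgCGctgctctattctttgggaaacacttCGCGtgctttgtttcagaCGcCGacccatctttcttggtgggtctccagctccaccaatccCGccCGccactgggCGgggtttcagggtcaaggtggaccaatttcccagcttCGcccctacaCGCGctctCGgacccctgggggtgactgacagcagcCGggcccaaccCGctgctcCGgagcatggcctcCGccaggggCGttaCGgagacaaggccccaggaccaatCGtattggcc

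In the site 2 stretch 34 copies of GGAAT or ATTCC covered 56.7% of the bases. Either word occurred somewhere in 47.1% of all 300-base tiles of the 7 windows, but it covered at least 20% of the bases in 0.0936% of tiles. The units of site 18 differed from each other by 10 to 32 single-base edits, and the pair that both began with a CENP-B box (units 1 and 3) was the closest, with 10 edits. The box, searched on both strands, was present in 0.0457% of 300-base tiles. The site 7 stretch held a single GGAAT, a word that with its complement was in 34.7% of 200-base tiles. The stretch before DCUN1D4 held 22 CG pairs in 300 bases, a number reached by 0.402% of 300-base tiles.

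Coverage, the summed length of the peaks, was higher in all 5 knockdowns than in control, by a factor that depended on the knockdown. It was 21.5 kb in 24 peaks in control, 40.5 kb in 52 peaks after DAXX knockdown and 41.3 kb in 58 peaks after HIRA knockdown. HJURP knockdown gave 25.2 kb in 37 peaks. HIRA+DAXX knockdown gave 23.7 kb in 62 peaks and HIRA+HJURP knockdown 23.2 kb in 75 peaks. Relative to control, DAXX coverage was 1.88 times and HIRA coverage 1.92 times as high, whereas the ratio was 1.17 for HJURP, 1.10 for HIRA+DAXX and 1.08 for HIRA+HJURP. Without chromosome 2 the ratios of HJURP (0.925), HIRA+DAXX (0.447) and HIRA+HJURP (0.675) fell below 1. With peaks of at least 500 bp only, those of HIRA+DAXX (0.566) and HIRA+HJURP (0.480) did so too. Without chromosome 9, or within 2 Mb of the band, the ratios were 1.81 (DAXX), 2.85 (HIRA), 1.11 (HJURP), 1.81 (HIRA+DAXX) and 1.27 (HIRA+HJURP). In peak number the order was different, with ratios of 2.17, 2.42, 1.54, 2.58 and 3.13 in the same order. Over all ectopic peaks the ratios in peak number were 2.63, 2.22, 2.64, 2.63 and 4.17. The combined knockdowns had more but narrower peaks. Their median widths were 318 bp (HIRA+DAXX) and 208 bp (HIRA+HJURP), against 751 bp in control and 592 to 605 bp in the single knockdowns. Over all ectopic peaks the medians were 285 and 293 bp, against 792 bp in control and 750 to 902 bp in the single knockdowns. Narrower peaks were thus not particular to the members. The combined knockdowns also had 2 libraries in place of 4, and the part of library number in peak width was not tested. HIRA+DAXX knockdown covered 0.584 times the bases of DAXX and 0.574 times those of HIRA knockdown, but had 1.19 and 1.07 times as many peaks. Without chromosome 9 its coverage was 1.00 times that of DAXX. HIRA+HJURP knockdown likewise covered 0.562 times the bases of HIRA and 0.920 times those of HJURP knockdown, with 1.29 and 2.03 times the peaks, and without chromosome 9 it covered 1.15 times the bases of HJURP.

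**Figure D1:**
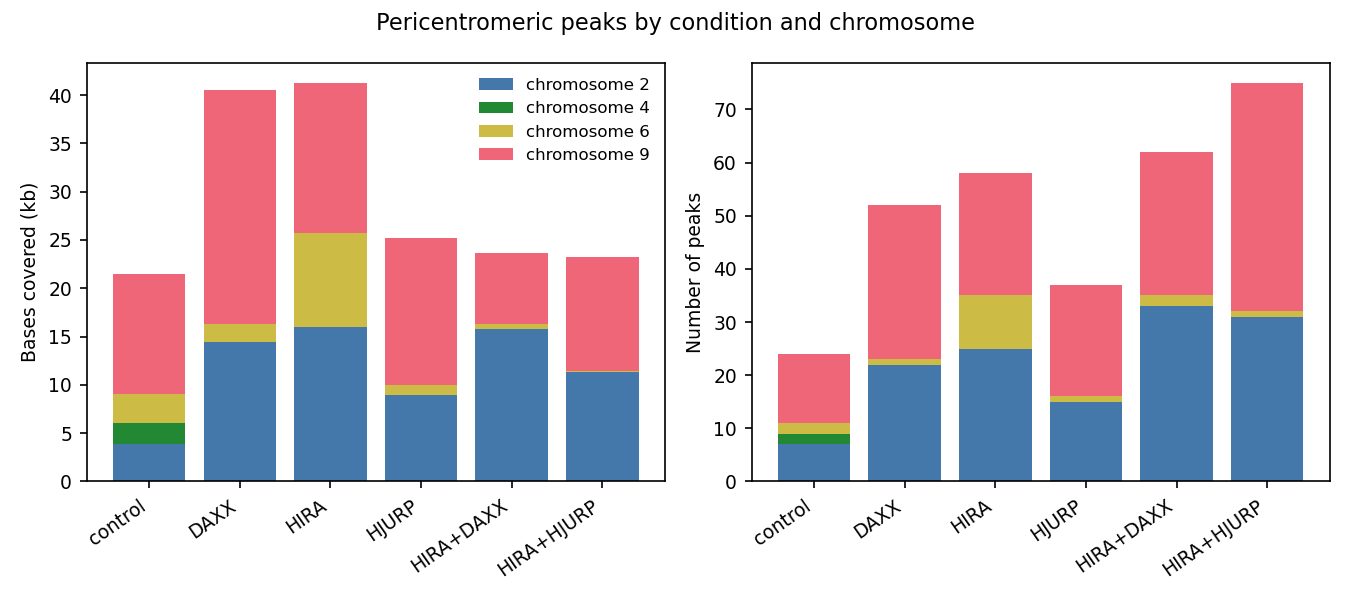
Bases covered in kb (left) and number of peaks (right) in each of the 6 merged peak sets, with the bars divided by chromosome. Chromosomes 2 and 9 hold most of every bar, chromosome 6 adds 9.71 kb in the HIRA set and at most 2.95 kb in the others, and chromosome 4 appears in control only.

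In bases and with chromosome 2 included, all 5 ratios were above those of the peaks beside other centromeres. The band of the same chromosomes changed less in the single knockdowns. Ectopic peaks within 5 Mb of the band on the remaining chromosomes (1530 peaks) had ratios to control of 1.63 (DAXX), 1.28 (HIRA), 1.04 (HJURP), 0.512 with HIRA+DAXX and 0.673 with HIRA+HJURP knockdown. Peaks that touched the band of the same 7 chromosomes (409 peaks) had ratios of 1.27, 0.982, 1.12, 0.944 and 1.15 in that order. Over all ectopic peaks the ratios were 2.83, 1.78, 2.40, 0.759 and 1.59, so the members were below them for DAXX, HJURP and HIRA+HJURP knockdown and above them for HIRA and HIRA+DAXX. The arms of the 7 chromosomes outside the windows were above the members throughout, with 6.24, 10.6, 6.19, 2.16 and 3.08, from 4 control peaks. Without chromosome 2 the member ratios were 1.48, 1.44, 0.925, 0.447 and 0.675, below those beside other centromeres for DAXX, HJURP and HIRA+DAXX. In peak number the ratios beside other centromeres were 1.49, 2.02, 1.64, 2.46 and 3.43. Those of the members were higher for DAXX, HIRA and HIRA+DAXX and lower for HJURP (1.54) and HIRA+HJURP (3.13). With 1 merged list per condition none of these differences could be tested from the lists.

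New coverage was that outside the control peaks. New bases were 65.3% of coverage after DAXX, 64.0% after HIRA, 47.9% after HJURP, 64.7% after HIRA+DAXX and 59.7% after HIRA+HJURP knockdown. Over all ectopic bases the shares were 68.9, 54.6, 69.5, 41.9 and 64.9% in that order. Without chromosome 2 the shares of HIRA+DAXX (31.9%) and HIRA+HJURP (41.9%) were lower. Without chromosome 9 all 5 were higher, at 82.9, 80.0, 70.6, 81.7 and 78.6%. With control peaks extended by 500 bp, HIRA+DAXX (49.0%) and HIRA+HJURP (44%) also came below 50%. Counted as whole peaks with no control base, DAXX knockdown had 31 of 52 (59.6%, 95% Wilson interval 46.1 to 71.8%), below the 73.6% of all its ectopic peaks. HIRA knockdown had 38 of 58 (65.5%, interval 52.7 to 76.4%), where all its ectopic peaks gave 60.7%. For HJURP knockdown it was 16 of 37 (43.2%, interval 28.7 to 59.1%) against 71.4%, the widest gap below the background among the 5 knockdowns. HIRA+DAXX knockdown stood above its background, with 40 of 62 (64.5%, interval 52.1 to 75.3%) against 50.9%. HIRA+HJURP knockdown had 52 of 75 (69.3%, interval 58.2 to 78.6%) against 68.5%. The intervals cover counting error only, and peaks of 1 site are not independent of each other. In whole peaks the background of HIRA and HIRA+HJURP lay within the interval of the members, and that of the remaining 3 lay above it (DAXX, HJURP) or below it (HIRA+DAXX).

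Control peaks were mostly found again. Of the 24 control peaks, 19 had a base in a DAXX peak, 19 in a HIRA peak and 19 in a HJURP peak (79.2% each), where all 289 ectopic control peaks gave 86.9%, 85.5% and 82.7%. The combined knockdowns touched 18 each (75%), against 78.2% for HIRA+DAXX and 85.5% for HIRA+HJURP over all ectopic control peaks. In bases the control coverage was shared less fully. The single knockdowns covered 65.4% (DAXX), 69.0% (HIRA) and 61% (HJURP) of it, and the combined knockdowns 38.8% (HIRA+DAXX) and 43.5% (HIRA+HJURP). Over all ectopic control bases the shares were higher, at 88.1, 80.9, 73.3, 44.1 and 55.9% in that order. Of the 24 control peaks, 15 had a base in all 5 knockdown sets, 4 in 4 sets, 2 in HIRA alone and 3 (12.5%) in none. Of the 289 ectopic control peaks, 196 had a base in all 5 sets, 40 in 4 sets, 10 in HIRA alone and 17 (5.88%) in none.

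The 6 sets together covered 71.5 kb of distinct sequence, of which 44.6% was in a peak of 1 set only and 8.60% (6.15 kb) in all 6. Over all ectopic peaks the shares were 29.6% and 9.83%. HIRA knockdown had the most bases of its own (11069), followed by DAXX (9710) and control (4395). HIRA+HJURP knockdown had the fewest (1556), although it had the most peaks. HJURP knockdown was largely contained in DAXX knockdown, with 84.4% of its bases and 34 of its 37 peaks there, whereas 52.5% of DAXX bases lay in HJURP peaks. Over all ectopic peaks 83.2% of HJURP bases lay in DAXX peaks and 70.6% of DAXX bases in HJURP peaks. In bases the containment of HJURP was thus not particular to the members. In peaks it was 91.9% among the members and 79.0% (603 of 763) over all ectopic peaks. All 3 single knockdowns but not control covered 5761 bases, and all 5 knockdowns but not control covered 2081 bases. The same counts were not made over all ectopic bases, so these numbers do not set the members apart.

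Of the 28 sites, 7 had a peak in all 6 sets and 11 in 1 set. HIRA knockdown reached 21 sites, 5 of them in no other set, whereas DAXX reached 14, HJURP 12, HIRA+DAXX 13, HIRA+HJURP 14 and control 12. Merged within each set alone, the members gave 15, 16, 21, 15, 14 and 15 sites (control, DAXX, HIRA, HJURP, HIRA+DAXX, HIRA+HJURP). All ectopic peaks gave 102, 168, 192, 164, 167 and 200 in that order. HIRA was thus the highest single knockdown in both, but HIRA+HJURP was higher over all ectopic peaks. Sites in no other set were not counted over all ectopic peaks. Sites 2 and 24 held most of the coverage in every knockdown, together 55.8% in HIRA, 65.8% in HJURP, 68.2% in DAXX, 75.7% in HIRA+HJURP and 78.5% in HIRA+DAXX. In control they held 49.6%. The share of site 2 was above control in every knockdown, whereas that of site 24 was lower in HIRA, HIRA+DAXX and HIRA+HJURP and close to control in DAXX and HJURP. Site 2 had 14.2% of control coverage and 30.4 to 63.4% of coverage in the knockdowns, while site 24 had 35.3% of control coverage and 15.1 to 35.4% in the knockdowns.

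**Figure D2:**
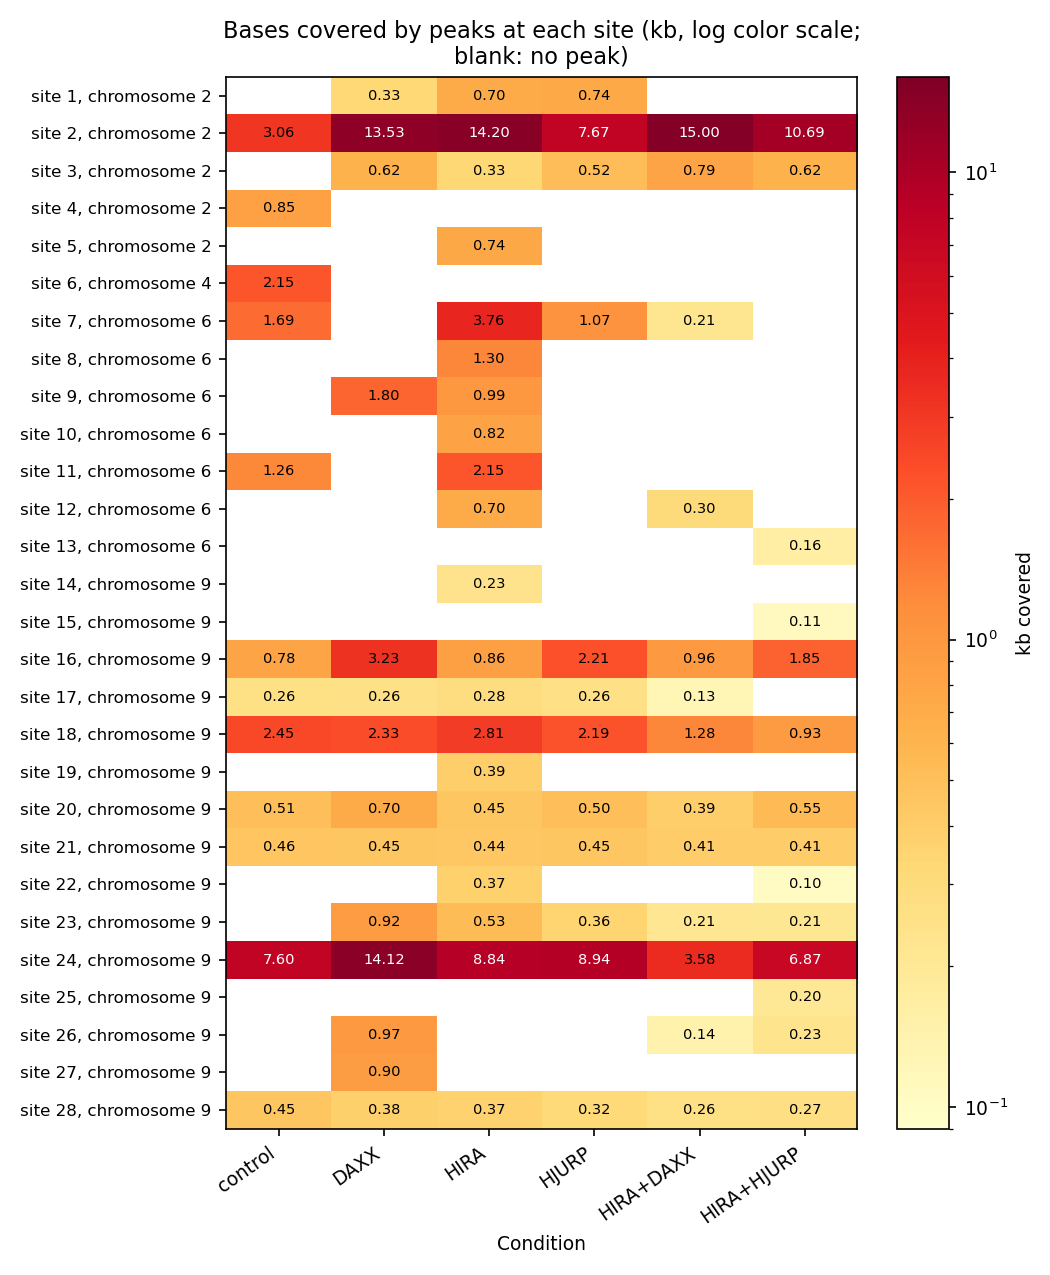
Kilobases covered by peaks at each of the 28 sites (rows, named by number and chromosome) in each of the 6 conditions (columns), on a logarithmic color scale with blank cells where no peak was present. Rows filled in all columns, such as sites 2, 18, 21, 24 and 28, are the 7 sites present in every set, while sites 4 and 6 are filled in control alone and the rows of chromosome 6 mainly in HIRA.

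The ratios to control differed between sites of different sequence. A site was called 5-base satellite when ATTCC and GGAAT covered at least 20% of its peak bases (sites 2 and 3, chromosome 2). It was called monomer-length repeat when at least 50% of bases equalled the base lying 1 alpha satellite monomer length further on (sites 17, 18, 19, 20, 21 and 28, chromosome 9). Both thresholds were chosen after the values had been seen. The other 20 sites passed neither threshold. Among them, sites 13, 15 and 25 have peaks too short for the monomer-length measure, and all 108 bases of site 15 aligned at 93.5 to 95.4% identity with sites 17, 20, 21 and 28. The 5-base class lay on chromosome 2 only and the monomer-length class on chromosome 9 only, so sequence and chromosome cannot be told apart for them. At the 5-base satellite, coverage relative to control was 4.62 and 4.75 after DAXX and HIRA knockdown, 2.68 after HJURP knockdown, and 5.16 and 3.70 after HIRA+DAXX and HIRA+HJURP knockdown. At the monomer-length repeat sites the single knockdowns stayed close to control, with 0.997, 1.15 and 0.900, and the combined knockdowns were at 0.597 and 0.522. The other sites gave 1.55 and 1.53 (DAXX and HIRA), 0.929 (HJURP), and 0.377 and 0.679 (HIRA+DAXX and HIRA+HJURP). Summed over sites, the combined knockdowns were above control at the 5-base satellite in bases and in peaks, and over the other 2 classes they had fewer bases and more peaks than control. Single chromosomes and sites differed from these sums. On chromosome 9, the other sites gave 2.40 (DAXX), 1.29 (HIRA), 1.37 (HJURP), 0.583 (HIRA+DAXX) and 1.14 (HIRA+HJURP).

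**Figure D3:**
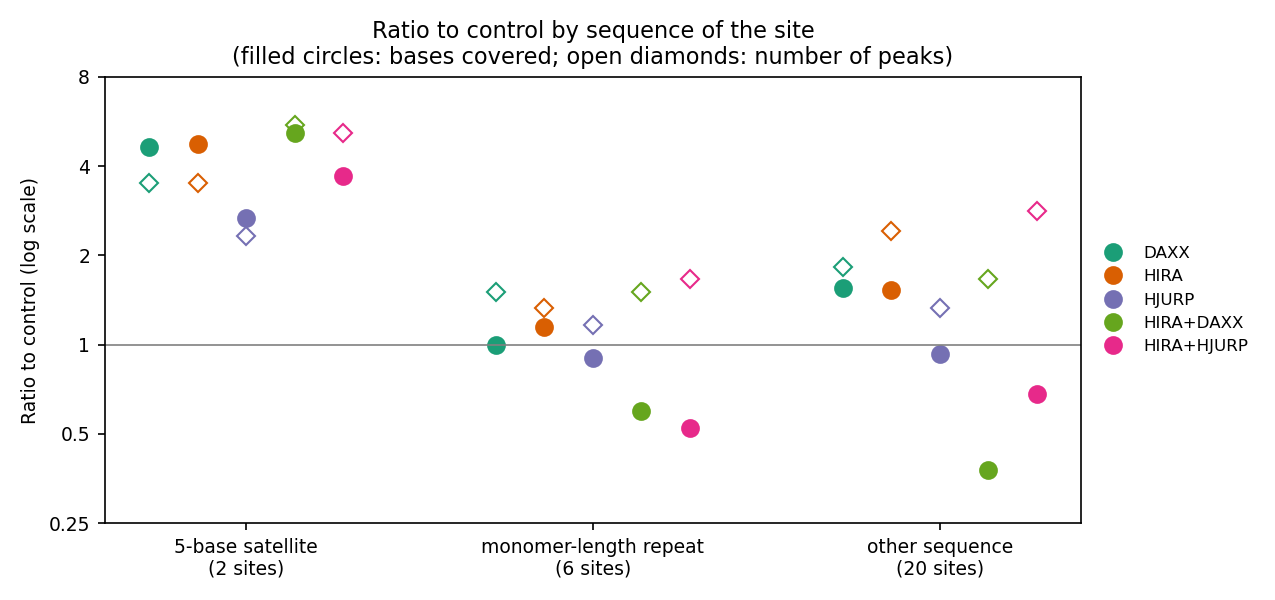
Ratio to control on a log scale for the 5 knockdowns at sites of each sequence type, with filled circles for bases covered and open diamonds for number of peaks. All 10 points of the 5-base satellite lie at 2.33 or above, while at the monomer-length repeat the circles of the single knockdowns lie between 0.900 and 1.15 and those of the combined knockdowns between 0.522 and 0.597.

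Site 2, chr2:89830455-89880003, was intergenic, 620 kb from the band, and its first base lay 18 bp from a run of N. It was the widest site (49549 bp) and the one of the largest gain over control in bases. Control had 6 peaks and 3.06 kb there. DAXX knockdown had 19 peaks and 13.5 kb, HIRA 20 peaks and 14.2 kb, and HJURP 12 peaks and 7.67 kb. HIRA+DAXX knockdown had 29 peaks and 15.0 kb, and HIRA+HJURP 27 peaks and 10.7 kb. Every control peak was touched by a peak of each of the 5 knockdowns, although not always in full. Of the 3061 control bases, HIRA+HJURP peaks covered 2451, DAXX peaks 2778 and the other sets 2931 to 2993. New bases made up 79.5% (DAXX), 79.4% (HIRA), 61.7% (HJURP), 80.1% (HIRA+DAXX) and 77.1% (HIRA+HJURP) of coverage at the site. The longest stretch in all 6 sets was 706 bp, at chr2:89876839-89877544. HIRA+DAXX knockdown had its widest peak of all here, 1494 bp at chr2:89874576-89876069. HIRA+HJURP knockdown also had its widest peak here, 1647 bp at chr2:89866711-89868357. At this site the 15.0 kb of HIRA+DAXX knockdown exceeded the coverage of DAXX and of HIRA knockdown alone, unlike in the sum over all 28 sites.

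**Figure D4:**
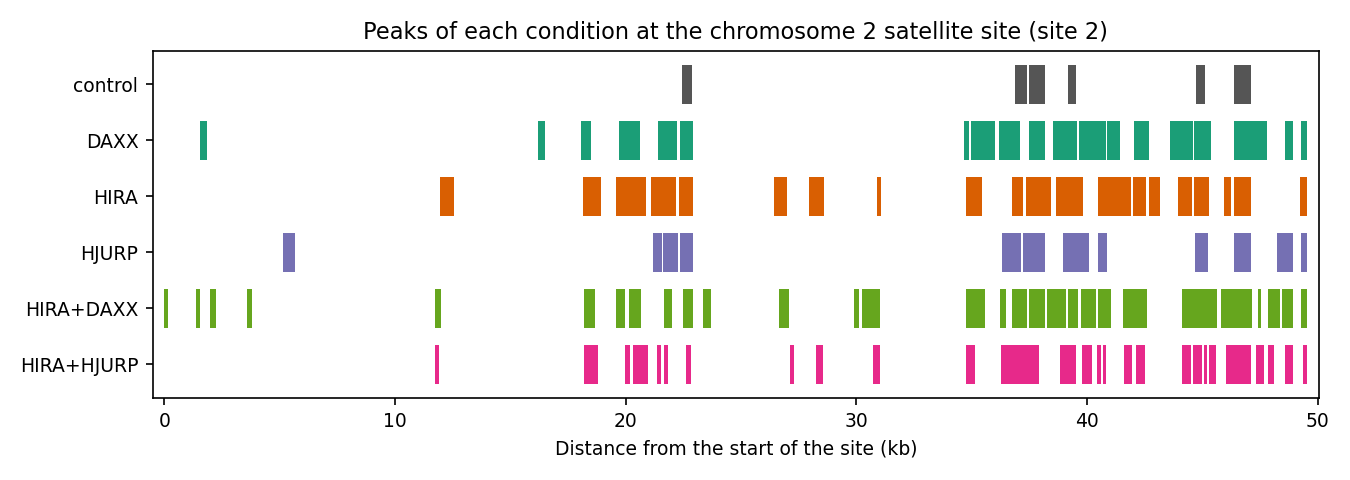
Position of each peak at site 2, in kb from the start of the site, with 1 row per condition. The 6 control peaks fall in the knockdown clusters at about 20 to 23 kb and 35 to 50 kb, and the knockdown peaks extend around them and into stretches with no control peak.

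Simple satellite made up 44.7% of the site 2 peak bases by the 5-base words, and 67.4% of bases equalled the base 5 positions on. Even so, 99.8% of the 76-base words of these peaks, the length of a sequencing read here, occurred once in the reference. The reference stops at the adjoining run of N, and how much of this satellite the SW480 genome holds was not measured. Site 3, chr2:90371783-90381511, held the same kind of sequence (24.6% in the words) and lay 118 kb from the band. It had no control peak and 2 DAXX, 1 HIRA, 2 HJURP, 4 HIRA+DAXX and 4 HIRA+HJURP peaks of 329 to 792 bp in all.

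Peaks of the 5-base satellite were also common elsewhere, and they did not respond alike. By single peaks, 124 of the 308 (40.3%) held at least 20% of these words, all on chromosome 2, against 52.3% of peaks in the bands of the 7 chromosomes, 29.9% of ectopic peaks beside other centromeres (69.1% beside chromosome 10) and 1.19% on the arms of the 7 chromosomes. Coverage of such peaks relative to control was 4.48 (DAXX), 4.75 (HIRA), 2.68 (HJURP), 5.12 (HIRA+DAXX) and 3.70 (HIRA+HJURP) beside the chromosome 2 centromere, from 6 control peaks. Beside the other centromeres it was 2.58, 2.14, 1.86, 1.27 and 1.02 in the same order, from 34 control peaks. Single chromosomes among these differed, with 5.38, 5.65, 1.79, 1.69 and 1.42 beside chromosome 7 (2 control peaks) and 3.53, 2.78, 2.66, 1.28 and 1.03 beside chromosome 21 (8 control peaks). Chromosome 10, with 23 of the 34 control peaks, gave 1.46, 1.25, 1.14, 1.12 and 0.893. Chromosome Y, with 1 control peak of 248 bp, gave 0.944, 0.956, 1.14, 4.63 and 4.07. Gains in DAXX and HIRA, or in the combined knockdowns, were thus not particular to chromosome 2. Within the band of chromosome 4, which held 16 such control peaks, it was 1.59, 1.25, 1.10, 2.33 and 2.08. Of the site 2 bases, 28.7% aligned at 90% identity or more over at least 100 bp with peaks of the chromosome 4 band, and 13.3% with peaks beside the chromosome Y centromere. How reads common to such related satellites were placed was not tested.

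Summed over the monomer-length repeat sites of chromosome 9, control and the single knockdowns were close to each other, but not at every site. Site 19 had 394 bp in HIRA and no peak in any other set. At site 20 DAXX had 703 bp and HIRA+HJURP 549 bp, against 512 bp in control. At site 21, chr9:67320489-67320957, in an intron of the lncRNA ENSG00000290549, every set had 1 peak, with 459 bp in control, 450 in DAXX, 443 in HIRA, 449 in HJURP, 410 in HIRA+DAXX and 407 in HIRA+HJURP. At site 28, chr9:69710862-69711308, intergenic, the same single peak was 447 bp in control, 381 in DAXX, 366 in HIRA, 321 in HJURP, 258 in HIRA+DAXX and 268 in HIRA+HJURP. At both sites the control peak was the widest, and the combined knockdowns had the narrowest. Site 18, chr9:66821968-66840728, was the largest of this type, with 2.45 kb in control, 2.33 in DAXX, 2.81 in HIRA, 2.19 in HJURP, 1.29 in HIRA+DAXX and 0.933 in HIRA+HJURP. Its control peak at chr9:66821968-66823328 was covered to 73.8% by DAXX, 97.4% by HIRA and 99.1% by HJURP peaks but to 15.4% by HIRA+DAXX and 8.52% by HIRA+HJURP peaks. Site 18 held 6 matches to the CENP-B box on the plus strand and none on the minus strand. The match at chr9:66822458-66822472, which opens unit 3 above, lay in a peak of all 6 sets, and the match 342 bases before it, 2 monomer lengths away, lay in control, HIRA and HJURP peaks.

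Across all members, 22 of the 308 peaks (7.14%) held a CENP-B box, all of them on chromosome 9. The share was 27.1% among peaks that touched the centromere bands of the same chromosomes and 11.6% among ectopic peaks beside other centromeres. It was lower over all ectopic peaks (4.80%) and on the arms of the 7 chromosomes outside the windows (3.57%). At the monomer-length repeat sites, 59.9 to 81.9% of bases equalled the base 1 monomer length further on, where shifts 11 bases shorter and longer gave 21.2 to 29.9%. Some of these sites could hardly be told apart, although at site 18 98.6% of 76-base words occurred once in the reference. Sites 20 and 28 were identical over 447 bp, and at site 28 none of 372 words of 76 bases occurred once in the reference. At site 20 it was 30 of 556 words and at site 21 220 of 394. Only alignments of mapping quality 10 or above entered the authors' peaks, and how reads were placed at sites with few unique words was not tested.

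Site 24, chr9:68396448-68434523, was the largest control site, with 5 peaks and 7.60 kb. It lay 79.7 kb from the nearest long run of N and overlapped copies of genes from other chromosomes: the pseudogenes FRG1JP and FRG1KP, copies of FRG1, and DUX4L50, a copy of the DUX4 family that no peak touched, beside the microRNA gene MIR4477B and the lncRNA ENSG00000225411. DAXX knockdown had 12 peaks and 14.1 kb there, 1.86 times the control bases. HIRA had 10 peaks and 8.84 kb (1.16), and HJURP 10 peaks and 8.94 kb (1.18). HIRA+DAXX had 12 peaks and 3.58 kb (0.470), and HIRA+HJURP 18 peaks and 6.87 kb (0.904). Among the single knockdowns the DAXX set was therefore the high one here, in contrast to site 2, where DAXX and HIRA were close. HIRA+DAXX knockdown was the low one and missed the control peak at chr9:68404750-68405541, which the other 4 knockdowns touched. The control peak at chr9:68419572-68422245, the widest of the 24 (2674 bp), was covered to 100% by DAXX, 71.1% by HIRA, 83.8% by HJURP, 19.7% by HIRA+DAXX and 71.1% by HIRA+HJURP peaks.

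**Figure D5:**
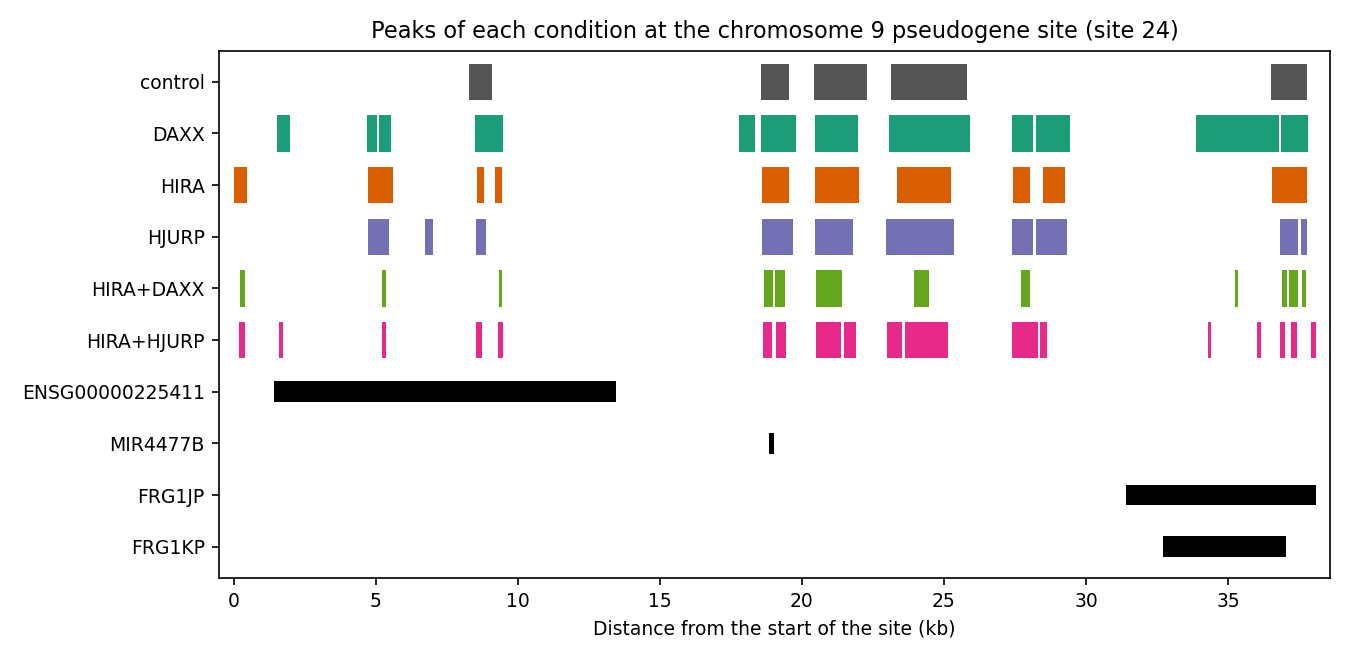
Position of each peak at site 24, in kb from the start of the site, with 1 row per condition and the annotated genes in black below (MIR4477B drawn wider than its 81 bp). Peaks of all 6 sets cluster at about 18 to 26 kb around and beyond MIR4477B, the knockdowns share peaks at about 5 kb and 28 kb where control has none, and the widest DAXX peak lies in FRG1KP.

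The MIR4477B hairpin, chr9:68415308-68415388 on the plus strand, lay in 1 peak of each of the 6 sets. FRG1JP, chr9:68427861-68455375, touched 17 peaks: 1 in control, 2 in DAXX, 1 in HIRA, 2 in HJURP, 4 in HIRA+DAXX and 7 in HIRA+HJURP. The widest peak of all members, 2925 bp in the DAXX set at chr9:68430300-68433224, lay wholly in FRG1KP, which touched 1 control peak, 2 DAXX peaks and 1 to 3 peaks in each of the other sets. Only 273 of its bases were in a control peak. The widest HJURP knockdown peak with no control base was also at site 24 (1109 bp, chr9:68424670-68425778), as was that of HIRA+HJURP (926 bp, chr9:68423832-68424757). In sequence 91.9% of 76-base words of the site were unique, and 20.5% of its peak bases aligned at 90% identity or more with ectopic peaks beside other centromeres, among them 2373 bases with chromosome 20. Site 16, chr9:66461324-66491082, at the lncRNA LINC01410, shared a 424 bp stretch of 97.6% identity with site 24. It had 0.783 kb in control, 3.23 in DAXX, 0.863 in HIRA, 2.21 in HJURP, 0.958 in HIRA+DAXX and 1.85 in HIRA+HJURP. Its HIRA peaks touched neither of the 2 control peaks, which the other 4 knockdowns all did.

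On chromosome 6 the peaks lay at PRIM2, the gene of the large DNA primase subunit, and its pseudogene PRIM2BP, and most belonged to HIRA knockdown. Of 17 peaks at 7 sites, 10 were in the HIRA set, with 9.71 kb. Control had 2 peaks and 2.95 kb, DAXX 1 peak and 1.80 kb, and HJURP 1 peak and 1.07 kb. The combined knockdowns had 2 peaks and 0.520 kb (HIRA+DAXX) and 1 peak and 0.164 kb (HIRA+HJURP). All sets but HIRA thus had at most 2 peaks, and HIRA+DAXX and HIRA+HJURP knockdown, which also target HIRA, had the least coverage. PRIM2, chr6:57179603-57513376 on the plus strand, held 16 of the 17 peaks, 14 of them without touching one of its exons. The widest new peak of HIRA knockdown, 1870 bp at chr6:57378852-57380721, was at site 7, and HIRA peaks covered 60.7% and 94.7% of the 2 control peaks of the chromosome, which no other knockdown touched. The widest new peak of DAXX knockdown, 1801 bp at chr6:57419626-57421426 (site 9), overlapped a HIRA peak of 990 bp. Every 76-base word of the chromosome 6 peaks occurred once in the reference, and neither satellite type was present, with 1.51% of bases in the 5-base words. PRIM2BP is annotated at chr6:57372288-57512702, inside the span of PRIM2. Whether the SW480 genome holds copies of this stretch that the reference lacks was not measured.

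No knockdown peak touched 3 of the control peaks, and these lay at the 2 sites of highest GC content. Site 6 on chromosome 4 held control peaks of 1159 bp (chr4:52708312-52709470) and 993 bp (chr4:52710212-52711204). The first spanned and the second followed the start of DCUN1D4, chr4:52709166-52783003 on the plus strand, a gene for a factor of cullin neddylation, and the site lay 8.31 kb from the band. Their GC content was 63.7%, with 74.8 CG pairs per kb, where the member peaks as a whole had 37.5% and 13.2 per kb. Site 4 was a control peak of 846 bp at chr2:96874639-96875484 in an exon of STARD7-AS1, the antisense RNA of the lipid transfer gene STARD7, with a GC content of 53.3%. Site 6 made up 10.0% and site 4 3.93% of control coverage, and neither held a satellite of either type.

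Conversely, 16 of the 28 sites had no control peak. The same count was not made over all ectopic peaks, so it does not set the members apart. Merged within each set, control had the fewest ectopic sites (102, against 164 to 200 in the knockdowns). All 5 knockdowns had peaks at sites 3 and 23. At site 23, chr9:68359709-68360630, intergenic, each knockdown had 1 peak, of 922 bp in DAXX, 526 in HIRA, 356 in HJURP, 213 in HIRA+DAXX and 207 in HIRA+HJURP. Site 1, chr2:89072764-89073584, at the lncRNA ANKRD36BP2, was present in the single knockdowns only, with 326 bp in DAXX, 702 in HIRA and 737 in HJURP. Of the sites present in 1 knockdown only, 5 belonged to HIRA, 3 to HIRA+HJURP, 1 to DAXX and none to HJURP or HIRA+DAXX. The HIRA sites included site 5 in introns of ANKRD36 (744 bp), sites 8 and 10 in PRIM2 (1296 and 816 bp) and site 19 at the monomer-length repeat (394 bp). The sites with a control peak behaved differently by knockdown. Of these 12 sites, DAXX knockdown had more bases than control at 4, HIRA at 7, HJURP at 3, HIRA+DAXX at 2 and HIRA+HJURP at 3. The median ratio over the 12 sites was 0.965, 1.09, 0.935, 0.504 and 0.490 in that order. All knockdowns but HIRA had more coverage than control in total but fewer bases at most of these sites. The choice of sites with a control peak itself favors ratios below 1. Control could not be at 0 bases there, whereas the knockdowns were at 0 at 2 (HIRA) to 5 (HIRA+HJURP) of the sites. These counts and medians therefore do not show a loss in the knockdowns.

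Few peaks lay close to the limits of the windows, but the width of the chromosome 9 window mattered, as 155 of its 156 peaks lay beyond 5 Mb. The members nearest a band were the 2 control peaks at DCUN1D4 (8.31 and 10.2 kb), followed by the control peak at STARD7-AS1 (74.6 kb) and a DAXX peak of 236 bp at site 3 (118 kb). On chromosome 6 the nearest member lay 1162 kb from the band, while the outermost peak inside the band, a DAXX peak of 294 bp, lay 73.8 kb from its edge. Just beyond the windows, the nearest peak was a HIRA peak of 333 bp on chromosome 12, 5782 kb from the band.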

How the data were processed

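The data were 1 list of merged, replicated peaks per condition (control, DAXX, HIRA, HJURP, HIRA+DAXX and HIRA+HJURP knockdown) from 20 ChIP and 20 input libraries. Per the study's methods and the submitters' processing notes, the authors used Trimmomatic for trimming and Bowtie2 2.2.6 for alignment to hg19, kept mapping qualities of at least 10 with SAMtools, and called peaks against input with MACS. Replicated peaks were merged with Bedtools, and replicated meant an overlap with peaks from at least 3 replicates. The rule for the combined knockdowns, with 2 libraries, was not given in the sources used here. The values used are the peak starts and ends as deposited by the authors, which carry no score, count or depth, so sequencing depth is unknown from them. Intervals for shares are 95% Wilson intervals and cover counting error only.

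Coverage was the sum of peak lengths, and ratios were taken between sets with no test. New bases were those in no control peak. Sites were member peaks of all sets merged within 10000 bp. Positions were written 1-based. Centromere bands were written from general knowledge of hg19, rounded to 0.1 Mb. Sequence, gaps and genes came from the GRCh37 reference and its GENCODE release 44 annotation, read with Python 3.11.15, numpy 2.4.6 and pandas 2.3.3. Peaks were compared by blastn 2.17.0 (at least 90% identity over at least 100 bp). A planned share of soft-masked bases was not used because the reference is in upper case. The code was tested on simulated data. The members, windows and lists were chosen with earlier results of these data known.

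Named regions were the site of most coverage on each chromosome, the 3 sites of most control coverage, the widest peak of each set, the 3 widest sites in all 6 sets, the widest new peak of each knockdown, the 3 widest sites in all single knockdowns but not control, and control peaks touched by no knockdown. Sites 5, 8, 10, 13, 15, 17, 19, 20, 21, 25 and 28 fall outside this rule and were named after their values had been seen. Alternatives counted peaks or sites in place of bases and changed the minimum peak width, the merging distance, the window, the chromosomes included and the definition of new.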

Additional observations from a re-analysis of the deposited data

How the results depend on the processing

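No paired analysis was possible because the peak lists used here are merged over replicates; no replicate could be left out, and the lists have no score for a stricter threshold. Of 55 recomputed ratios to control, 43 stayed within 1.5 times without crossing 1, 6 moved further and 6 crossed 1. Of 44 ratios between knockdowns, 27 stayed so, 6 moved and 11 crossed 1. A ratio of exactly 1 was counted as staying. The 2 Mb window and leaving out chromosome 9 kept the same peaks, and limiting chromosome 9 to 5 Mb kept nearly the same. These tallies therefore count the same change more than once. Counting peaks gave HIRA+DAXX 2.58 and HIRA+HJURP 3.13 times control, and turned HIRA+DAXX to 1.19 over DAXX and 1.07 over HIRA, and HIRA+HJURP to 1.29 over HIRA and 2.03 over HJURP. Counting sites merged within each set alone, and not across sets as in the text, gave DAXX 1.07, HIRA+DAXX 0.933, and HJURP and HIRA+HJURP 1 times control (no direction), and HIRA+HJURP 1 times HJURP. Peaks of at least 500 bp gave HIRA+DAXX 0.566 and HIRA+HJURP 0.480 times control, HIRA+DAXX 0.321 (over DAXX) and 0.326 (over HIRA), and HIRA+HJURP 0.276 (over HIRA) and 0.440 (over HJURP). Merging within 1000 bp gave HIRA+HJURP 1.26 times HJURP. A 2 Mb window, or no chromosome 9, gave HIRA 2.85 and HIRA+DAXX 1.81 times control. It also gave HIRA+DAXX 1.00 times DAXX and HIRA+HJURP 1.15 times HJURP. With chromosome 9 limited to 5 Mb these 4 ratios were 2.85, 1.81, 1.00 and 1.16. Without chromosome 2, HJURP was 0.925, HIRA+DAXX 0.447 and HIRA+HJURP 0.675 times control, and HIRA+DAXX 0.302 times DAXX and 0.312 times HIRA. Leaving out chromosomes 3, 5 or 12 removes no peak.

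The new share left the 95% Wilson interval of its value at the number of peaks in 17 of 45 recomputations. A 2 Mb window and no chromosome 9 kept the same peaks but were counted separately. The new share was then 82.9% (DAXX), 80.0% (HIRA), 70.6% (HJURP), 81.7% (HIRA+DAXX) and 78.6% (HIRA+HJURP). Without chromosome 2 it was 31.9% (HIRA+DAXX) and 41.9% (HIRA+HJURP). Extending control peaks by 500 bp gave 51.4% (DAXX), 49.0% (HIRA+DAXX) and 44% (HIRA+HJURP). For HIRA+HJURP, peaks of at least 500 bp gave 45.7% and whole peaks under 50% covered 72.0%. Merging within 1000 bp gave 60 sites and within 50000 bp 17. The cause of these shifts was not tested.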
